A study of Homo sapiens with 12 samples.

Results

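Genes for the proteins of the mitochondrial ribosome were taken from the count table by their symbols, which begin with MRPL or MRPS followed by a number. Antisense and pseudogene symbols were left out. The rule gave 77 genes of the 26364 in the table, and no measured value entered it. Of these, 50 encode proteins of the large subunit and 26 encode proteins of the small subunit. MRPS36 is in neither count, since its product is a subunit of the 2-oxoglutarate dehydrogenase complex despite its name. MRPS18A and MRPS30 were counted with the large subunit, where their products sit in the human mitoribosome.

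The mitoribosome is the ribosome inside mitochondria. It translates the few messenger RNAs of the mitochondrial genome, all of which encode core subunits of the respiratory chain and the ATP synthase. Its ribosomal RNAs come from the mitochondrial genome, whereas its proteins are encoded in the nucleus, made in the cytosol and imported. Some of these proteins have bacterial counterparts and others are found only in mitochondria.

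Polyadenylated RNA had been sequenced from JeKo-1 and Granta-519, cell lines that were both established from mantle cell lymphoma. Chidamide, an oral benzamide inhibitor of histone deacetylases, had been given at 4 µM for 12 h and set against vehicle. There were 4 groups of 3 libraries, namely JeKo-1 with vehicle, JeKo-1 with chidamide, Granta-519 with vehicle and Granta-519 with chidamide, all grown in the same medium. The labels named no genetic change in any group and did not state whether replicates were separate cultures. All p-values therefore refer to the scatter among libraries, and this scatter may be technical.

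Library totals ran from 12873642 to 16592694 counts. B cell markers were present in every group, with 2780 to 4150 summed CPM (counts scaled to a common library size) over 6 genes. Of the mantle cell markers, SOX11 had no count in the 6 libraries labelled JeKo-1 and CCND1 had 5 counts over the 3 vehicle libraries there, so these libraries are called JeKo-1-labelled throughout. Vehicle replicate 2 of the JeKo-1-labelled libraries differed most from its replicates, with a mean chi-square per gene of 5.63 and 4.68, against 1.63 to 3.12 in the other pairs. Without it, 55 members were lower and 5 higher with chidamide under that label, against 57 and 5 with all libraries. Summed myeloid markers rose with chidamide from 1.82 to 4.03 CPM to 36.3 to 37.2 CPM under the JeKo-1 label, and from 26.3 CPM to 95.7 to 103 CPM in Granta-519. Most of the sums with chidamide was ITGAM (24.2 and 79.3 CPM) and CSF1R (8.82 and 19.7 CPM). CD14 went from 0.123 to 0.122 CPM under the JeKo-1 label and from 0.386 to 0.465 CPM in Granta-519. LYZ went from 0.335 to 3.46 CPM and from 0.0444 to 0.092 CPM. In that list, 4 of 6 genes had a count under the JeKo-1 label in vehicle and 6 of 6 with chidamide, 5 of 6 had one in both Granta-519 groups, and S100A8 stayed at 0 counts in 3 of the 4 groups. Their part in the results below was not tested. The T and natural killer cell list stayed at or under 7.68 CPM and the erythroid list at or under 1.34 CPM. The epithelial and stromal list was at 25.1 to 28.2 CPM in vehicle and 30 to 34.1 CPM with chidamide under the JeKo-1 label, and at 58 to 63.8 CPM and 65.6 to 70.6 CPM in Granta-519. Most of this was COL1A1, and its part in the results was not tested.

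Of the 77 genes, 76 passed the filter on low counts and were tested. MRPS24, a small-subunit gene, was not tested, as it had 2 counts in all, both in Granta-519 vehicle libraries. The table also has a readthrough row that joins MRPS24 to its neighbour, URGCP-MRPS24, with 0 counts. How overlapping genes were counted is not known, so the near absence of counts cannot be read as a low level of MRPS24. Counts of MRPL42, MRPL45 and MRPS31 are uncertain, because each has a pseudogene listed in the table and how any shared reads were counted is not known.

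Chidamide lowered most mitoribosomal protein genes in both lines. Under the JeKo-1 label, 62 of 76 genes passed an adjusted p of 0.05 (edgeR's quasi-likelihood test, Benjamini-Hochberg adjustment over 15087 genes), where 66.4% of all tested genes did. Of the 62, 57 fell and 5 rose, where 31.1% of all tested genes fell and 35.3% rose. Their median log2 change was -0.39, against 0.04 over all genes. In Granta-519, 59 passed (background 70.9%), of which 54 fell and 5 rose, where 31.3% of all tested genes fell and 39.6% rose. The median log2 change there was -0.37, against 0.08 over all genes. In bulk RNA, fewer cells of a type and less RNA per cell cannot be told apart, and each level is relative to the rest of its library.

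Falls were mostly modest. Of the members that fell, 20 under the JeKo-1 label and 22 in Granta-519 fell at least 1.5-fold, where 11.1% and 10.9% of all tested genes did. One rise under the JeKo-1 label, that of MRPS14, reached 1.5-fold (background 23.6%), and none did in Granta-519 (background 26.1%). The median SE of a member's log2 change was 0.06 under the JeKo-1 label and 0.07 in Granta-519. All 3 chidamide libraries lay below all 3 vehicle libraries for 59 of 76 members under the JeKo-1 label (31.4% of all tested genes) and for 55 in Granta-519 (32.5%).

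**Figure D1:**
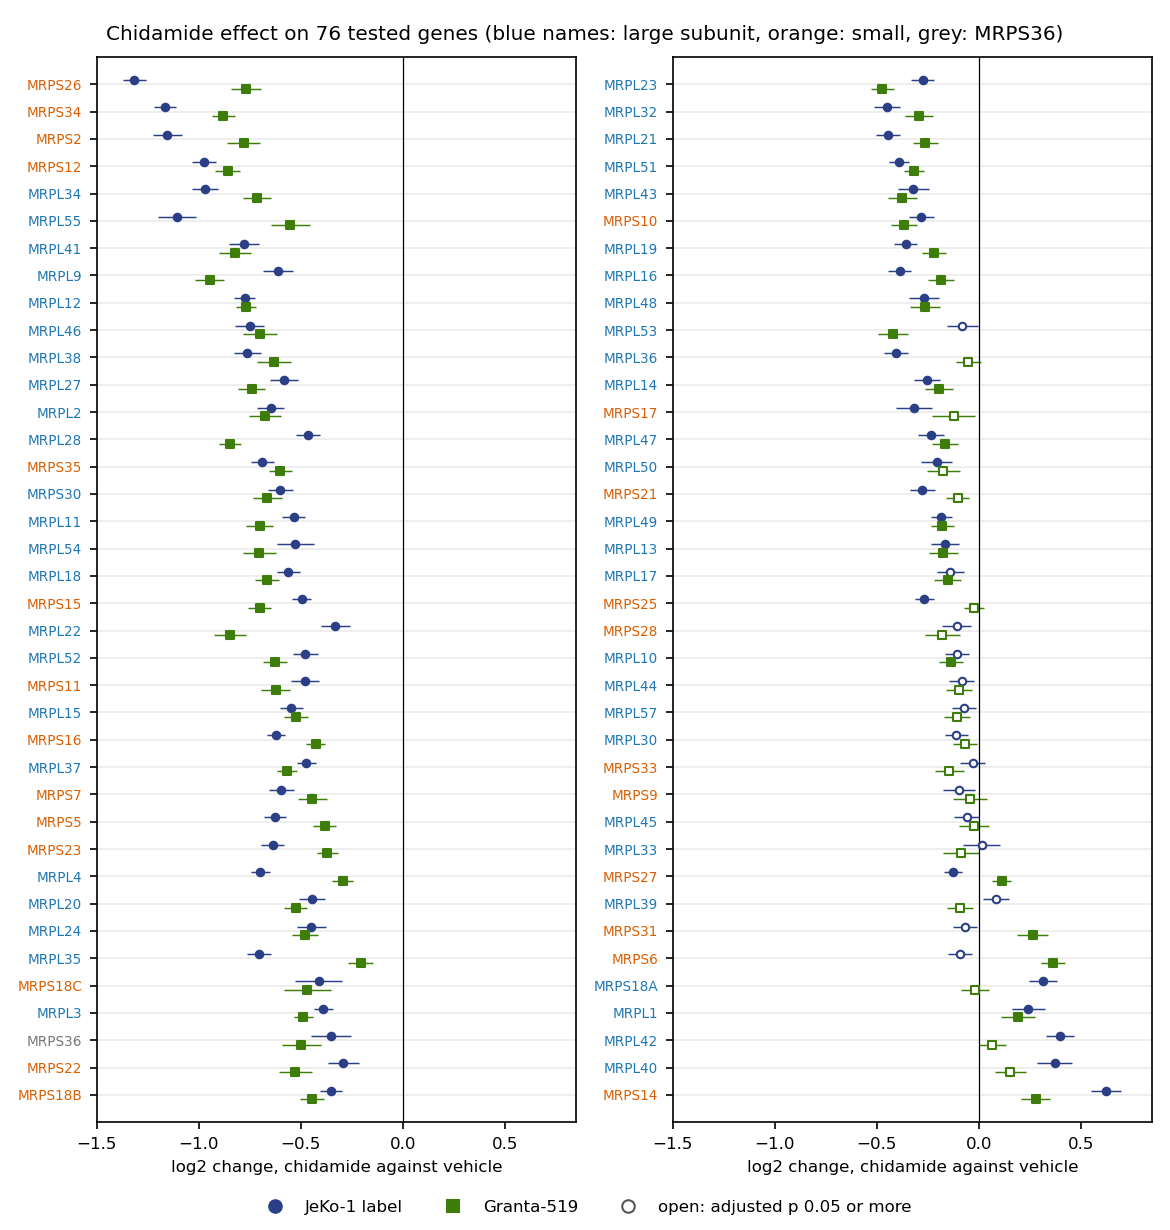
Log2 change with chidamide against vehicle (horizontal axis) for the 76 tested genes, ordered by the mean of both lines, with circles for the JeKo-1-labelled libraries, squares for Granta-519 and bars for 1 SE. Filled symbols passed the adjusted p threshold of 0.05; of the 76 genes, 57 fell under the JeKo-1 label and 54 fell in Granta-519.

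Summed over the 77 genes, the level under the JeKo-1 label was 6911 ± 135 CPM in vehicle (SD, n = 3) and 5097 ± 32.1 CPM with chidamide, a change of -26.2%. In Granta-519 it was 4916 ± 65.9 CPM in vehicle and 3803 ± 74.5 CPM with chidamide, a change of -22.6%. In neither line did the vehicle and chidamide libraries overlap. As a share of all counts, these genes took 0.645% ± 0.00907 and 0.520% ± 0.00185 under the JeKo-1 label, and 0.504% ± 0.00648 and 0.388% ± 0.00537 in Granta-519.

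Both subunits took part, where 31.1% of all tested genes fell and 35.3% rose under the JeKo-1 label, and 31.3% and 39.6% in Granta-519. Under the JeKo-1 label, 37 of 50 large-subunit genes fell and 4 rose, and 19 of 25 tested small-subunit genes fell and 1 rose. In Granta-519, 38 large-subunit genes fell and 1 rose, and 15 small-subunit genes fell and 4 rose. The summed large subunit changed by -24.9% under the JeKo-1 label and -24.0% in Granta-519, and the summed small subunit by -28.6% and -19.7%. The ratio of the small to the large sum therefore went from 0.585 ± 0.00125 to 0.556 ± 0.00194 under the JeKo-1 label, and from 0.469 ± 0.00405 to 0.496 ± 0.00695 in Granta-519 (SD, n = 3 each). The libraries of vehicle and chidamide did not overlap in this ratio in either line, and it moved in opposite directions.

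**Figure D2:**
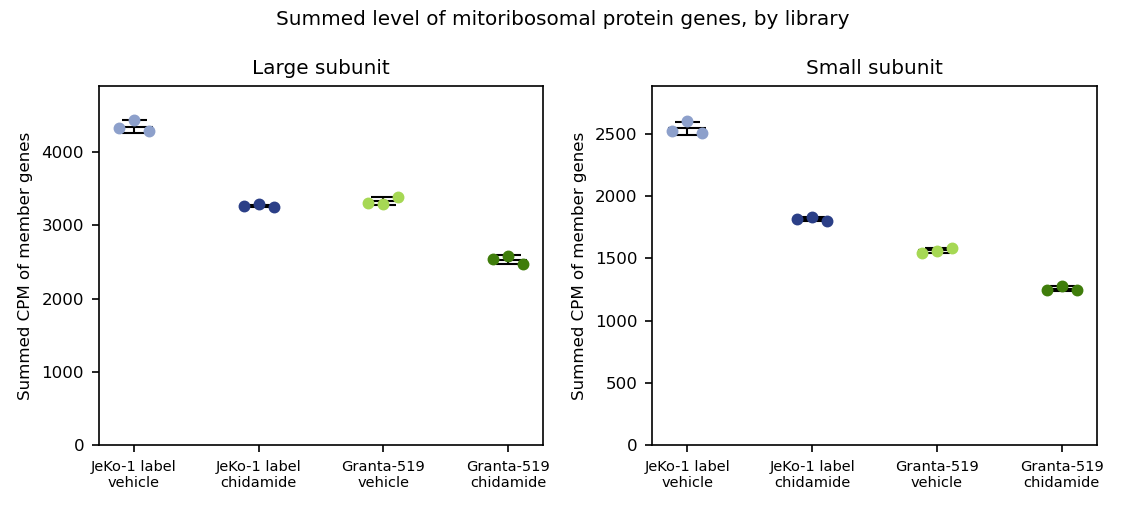
Summed CPM (vertical axis) of the large-subunit genes (left) and small-subunit genes (right) in each of the 12 libraries, with the mean and SD of each group as lines. Every chidamide library lies below every vehicle library of its line, for example 3266 ± 17.3 CPM against 4349 ± 82.4 CPM for the large subunit under the JeKo-1 label.

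Genes with a bacterial counterpart and genes found only in mitochondria both mostly fell. Of all tested genes, 31.1% fell and 35.3% rose under the JeKo-1 label, and 31.3% and 39.6% in Granta-519. Of 46 tested genes with a bacterial counterpart, 36 fell and 3 rose under the JeKo-1 label, with a median log2 change of -0.41. In Granta-519, 35 fell and 3 rose, with a median of -0.37. Of 29 mitochondria-specific genes, 20 fell and 2 rose under the JeKo-1 label (median -0.29), and 18 fell and 2 rose in Granta-519 (median -0.37).

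In the JeKo-1-labelled libraries MRPS26, a mitochondria-specific protein of the small subunit, fell the most. Its level was 167, 194 and 165 CPM in vehicle and 67.9, 73.7 and 69.4 CPM with chidamide, so the groups stood far apart. The change was 2.49-fold down (log2 -1.32 ± 0.06 SE, adjusted p = 4.68e-27). In Granta-519 it began lower, at 41.6, 44.1 and 44.1 CPM, and was 25.3, 27.4 and 23.4 CPM with chidamide, again without overlap (log2 -0.77 ± 0.07, adjusted p = 8.78e-14).

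MRPS34, another mitochondria-specific small-subunit protein, was among the largest falls in both lines. Its vehicle libraries held 202, 234 and 220 CPM under the JeKo-1 label and its chidamide libraries 95.2, 102 and 95.3 CPM (log2 -1.17 ± 0.05, adjusted p = 1.26e-26). In Granta-519 the values were 123, 118 and 120 CPM in vehicle and 63.4, 70.9 and 61.4 CPM with chidamide (log2 -0.88 ± 0.06, adjusted p = 2.5e-20). Thus all 6 chidamide libraries lay below all vehicle libraries.

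MRPS12, the protein at the decoding site, was among the 6 largest falls of each line. It was at 101, 114 and 103 CPM in vehicle and 53.2, 52.9 and 55.8 CPM with chidamide under the JeKo-1 label (log2 -0.98 ± 0.06, adjusted p = 2.47e-21). In Granta-519 it was at 73.9, 79.4 and 76.2 CPM, then 40.7, 45.1 and 40.9 CPM (log2 -0.86 ± 0.06, adjusted p = 3.1e-18). The difference between the effects was -0.12 ± 0.09 (adjusted p = 0.293).

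MRPS2, MRPL55 and MRPL34 completed the largest falls under the JeKo-1 label. MRPS2, a core small-subunit protein, went from 76.5 ± 8.41 to 34.3 ± 2.01 CPM (SD, n = 3; log2 -1.15). MRPL55, a mitochondria-specific protein of the large subunit, went from 34.1 ± 2.69 to 15.9 ± 1.95 CPM (log2 -1.11). MRPL34, a large-subunit protein with a bacterial counterpart, went from 108 ± 11.3 to 55.2 ± 2.94 CPM (log2 -0.97). All of these also fell in Granta-519, by log2 changes of -0.78, -0.55 and -0.71.

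In Granta-519 the deepest fall was that of MRPL9, a large-subunit protein with a bacterial counterpart. Its libraries held 49.5, 49.5 and 50.6 CPM in vehicle and 26.7, 25.6 and 25.2 CPM with chidamide, 1.93-fold down (log2 -0.95 ± 0.07, adjusted p = 4.85e-17). Under the JeKo-1 label it was at 42.7, 46.8 and 39.8 CPM, then 27.8, 29 and 28 CPM (log2 -0.61 ± 0.07, adjusted p = 1.76e-10). The groups did not overlap in either line.

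MRPL28 and MRPL22, large-subunit proteins of which MRPL22 lines the exit tunnel of the new polypeptide, fell more in Granta-519. MRPL28 went from 123 ± 2.98 to 68.6 ± 5.52 CPM there (log2 -0.85) and from 82.5 ± 1.82 to 59.8 ± 2.06 CPM under the JeKo-1 label (log2 -0.46). MRPL22 went from 38.7 ± 3.15 to 21.5 ± 1.2 CPM (log2 -0.84) and from 49.1 ± 2.41 to 39 ± 0.448 CPM (log2 -0.33). MRPL41, a mitochondria-specific protein reported as a partner of BCL2 and p53, fell by log2 changes of -0.82 in Granta-519 and -0.78 under the JeKo-1 label.

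**Figure D3:**
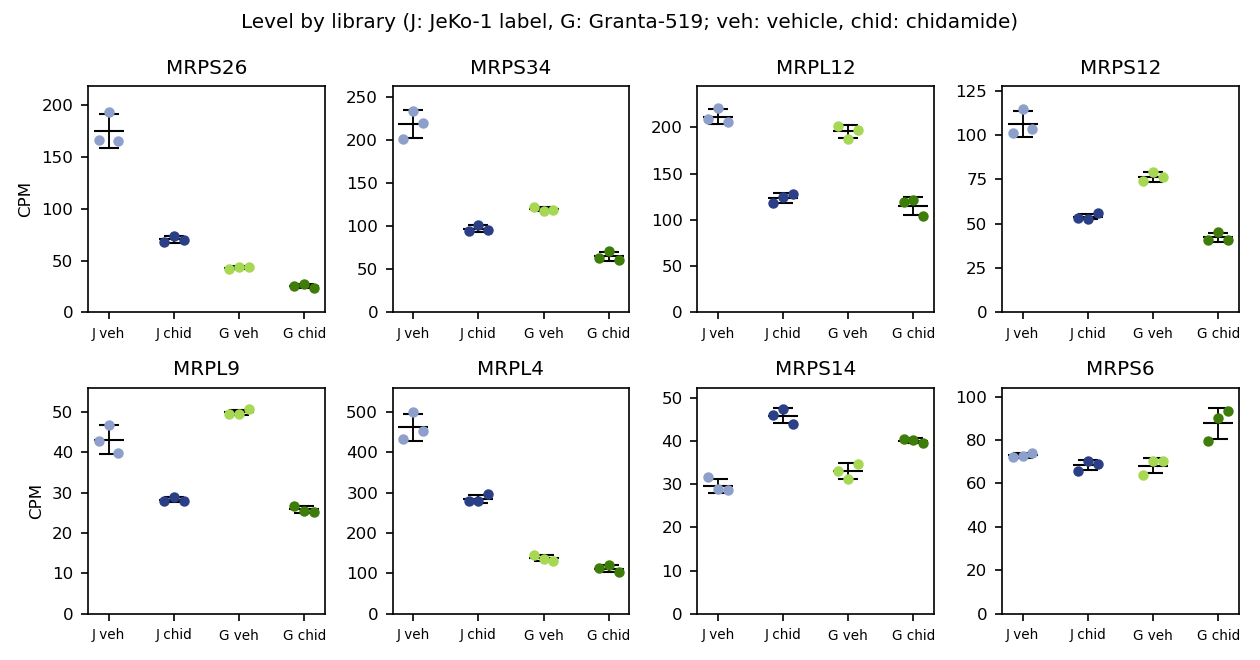
CPM (vertical axes, each from 0) of 8 genes in each of the 12 libraries, with the mean and SD of each group as lines. MRPS26, MRPS34, MRPL12, MRPS12, MRPL9 and MRPL4 lie lower with chidamide in both lines, MRPS14 lies higher in both, and MRPS6 is higher in Granta-519, at 87.7 ± 7.18 against 68.2 ± 3.52 CPM.

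Few members rose. MRPS14, a small-subunit protein with a bacterial counterpart, was at 31.6, 28.8 and 28.6 CPM in vehicle and 46, 47.4 and 44 CPM with chidamide under the JeKo-1 label (log2 0.62 ± 0.07, adjusted p = 6.61e-11). In Granta-519 it was at 33.1, 31.3 and 34.8 CPM, then 40.5, 40.3 and 39.5 CPM (log2 0.28 ± 0.07, adjusted p = 0.000546). Its chidamide libraries were above all vehicle libraries in both lines.

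MRPS6, another small-subunit protein with a bacterial counterpart, had the largest rise in Granta-519. It was at 64.1, 70.2 and 70.2 CPM in vehicle and 79.7, 90 and 93.5 CPM with chidamide there (log2 0.36 ± 0.06, adjusted p = 2.07e-07). Under the JeKo-1 label it was at 72, 72.5 and 74.1 CPM, then 65.9, 70.4 and 69.1 CPM, which did not pass the test (log2 -0.09 ± 0.06, adjusted p = 0.174).

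Under the JeKo-1 label MRPL42 and MRPL40, both mitochondria-specific, rose by log2 changes of 0.40 and 0.37, and MRPS18A rose by 0.32. In Granta-519 MRPL42 had 0.07 (adjusted p = 0.374) and MRPL40 had 0.16 (adjusted p = 0.0609). Both passed there with upper-quartile scaling (adjusted p = 0.0238 and 0.00259). MRPL40 also passed with relative log expression scaling (0.02) and DESeq2 (0.0307). MRPL1, the protein of the mobile L1 stalk, rose by 0.24 ± 0.08 under the JeKo-1 label (adjusted p = 0.00668) and by 0.19 ± 0.08 in Granta-519 (adjusted p = 0.0371). The Granta-519 call of MRPL1 was lost in the line fitted alone (adjusted p = 0.163), without vehicle replicate 1 (0.129), vehicle replicate 2 (0.0744) or chidamide replicate 3 (0.192), and with no filter on low counts (0.447). MRPS31, a mitochondria-specific small-subunit protein, rose in Granta-519 by 0.26 ± 0.08, a call that was lost with no filter (adjusted p = 0.0791).

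The shared direction can be counted gene by gene. Of the members, 51 fell in both lines, which is 89.5% of those that fell under the JeKo-1 label and 94.4% of those that fell in Granta-519, where 22.4% of all tested genes fell in both. MRPL1 and MRPS14 rose in both (background 24.1%). MRPL36, MRPL50, MRPS17, MRPS21 and MRPS25 fell under the JeKo-1 label alone, in the sense that the other line missed the threshold. MRPL10, MRPL17 and MRPL53 did so in Granta-519. MRPL30, MRPL33, MRPL39, MRPL44, MRPL45, MRPL57, MRPS28, MRPS33 and MRPS9 passed in neither line. The matching shares over all genes are not given here, so these lists only name the genes.

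Across the 76 genes, the log2 changes in the lines correlated with Pearson's r of 0.79 and Spearman's rho of 0.83, against 0.57 and 0.66 over 15087 genes. These are correlations across genes, which are not independent replicates, and each line had its own vehicle libraries in 1 shared fit.

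**Figure D4:**
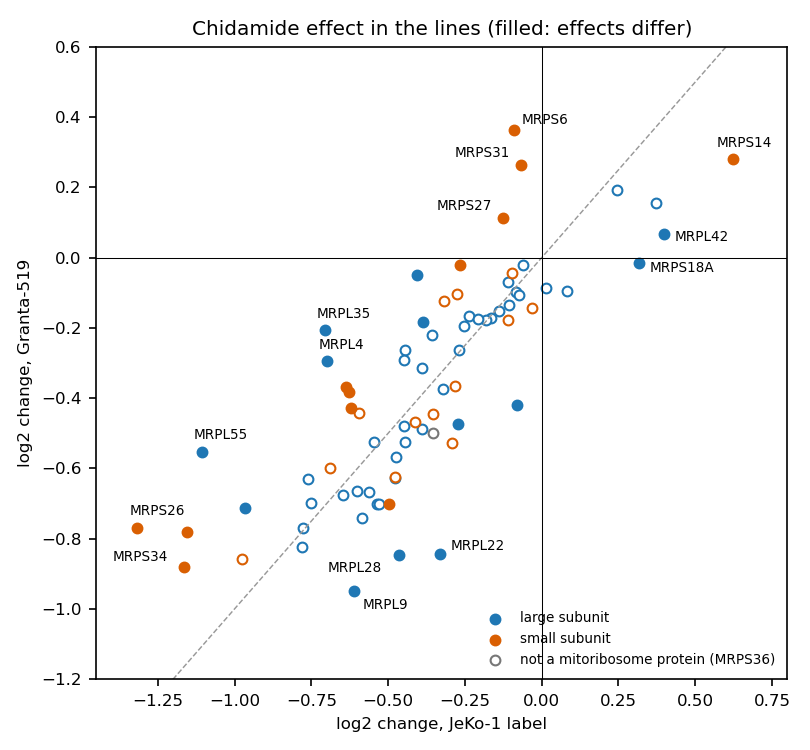
Log2 change with chidamide in Granta-519 (vertical axis) against that under the JeKo-1 label (horizontal axis) for the 76 tested genes, coloured by subunit, with equal effects on the dashed line. Filled symbols are the 25 genes whose effects differed between the lines at an adjusted p under 0.05, and most genes sit in the lower left, where 51 fell in both.

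The effect of chidamide differed between the lines for 25 of the 76 genes, where it differed for 39.5% of all tested genes. Of these, 16 changed more negatively under the JeKo-1 label (background 19.5%) and 9 more negatively in Granta-519 (background 20%). That split depends on the scaling: with scaling by library totals it was 6 and 24, and with upper-quartile scaling 13 and 12. Among the 51 genes that fell in both lines, 11 fell further under the JeKo-1 label and 5 fell further in Granta-519. These counts hold for the main scaling only, and the matching share over all genes is not given here. With library totals MRPL34, MRPS16, MRPS2, MRPS34 and MRPS5 lost their calls. Of the named members that fell in both lines, MRPL11, MRPL20, MRPL3, MRPL52, MRPL54, MRPS18B and MRPS22 then gained calls for a more negative effect in Granta-519.

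MRPS26 and MRPL55 differed most in favour of a deeper fall under the JeKo-1 label, each by a log2 difference of -0.55, followed by MRPL35, a large-subunit protein, at -0.50 ± 0.09 (adjusted p = 3.47e-06). MRPL35 was at 106 ± 5.72 and 64.7 ± 2.51 CPM under that label, and at 60 ± 5.32 and 52 ± 0.99 CPM in Granta-519. Its fall in Granta-519 (log2 -0.21) was lost with upper-quartile scaling (-0.11, adjusted p = 0.111). MRPL4, which reaches into the exit tunnel, fell by log2 changes of -0.70 and -0.29, a difference of -0.40 ± 0.07 (adjusted p = 5.04e-06).

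In the other direction MRPL22 differed the most, by 0.51 ± 0.11 (adjusted p = 7.8e-05), followed by MRPL28 at 0.38 ± 0.08 (adjusted p = 8.36e-05). MRPS6 differed by -0.45 ± 0.08 (adjusted p = 1.02e-05), as it rose in Granta-519. MRPS27, a pentatricopeptide-repeat protein of the small subunit, was the one member called in opposite directions, where 5.16% of all tested genes were. It was at 229, 232 and 215 CPM in vehicle and 206, 210 and 204 CPM with chidamide under the JeKo-1 label (log2 -0.12 ± 0.04, adjusted p = 0.012). In Granta-519 it was at 111, 103 and 110 CPM, then 114, 122 and 115 CPM (log2 0.11 ± 0.05, adjusted p = 0.0327). Both calls depended on the settings. Under the JeKo-1 label the change was 0.02 with upper-quartile scaling and 0.01 with library totals, and the call was also lost with relative log expression scaling (adjusted p = 0.0718), DESeq2 (0.0772) and no filter (0.207). The adjusted p was 0.056 to 0.0838 without vehicle replicate 1 or 2 or chidamide replicate 1 or 3. In Granta-519 the change was 0.00 with no filter (adjusted p = 0.998) and 0.04 in the line fitted alone (0.426), and the adjusted p was 0.209 without vehicle replicate 2 and 0.0968 without chidamide replicate 2.

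At the functional sites of the large subunit, changes were uneven. MRPL12, the stalk protein that recruits translation factors, was at 209, 221 and 206 CPM in vehicle and 119, 124 and 128 CPM with chidamide under the JeKo-1 label (log2 -0.78 ± 0.05, adjusted p = 3.61e-20). In Granta-519 it was at 202, 188 and 198 CPM, then 119, 122 and 104 CPM (log2 -0.77 ± 0.05, adjusted p = 6.38e-20). The groups did not overlap in either line, and the effects differed by -0.01 ± 0.07 (adjusted p = 0.999).

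MRPL11, which sits at the base of the stalk, fell by log2 changes of -0.54 under the JeKo-1 label and -0.70 in Granta-519. MRPL10, which holds the stalk, had changes of -0.11 (adjusted p = 0.0999) and -0.13 (adjusted p = 0.0372). The second of these was lost with upper-quartile scaling (adjusted p = 0.581), with relative log expression scaling (0.137), and without either of vehicle replicates 1 and 2 or any of the chidamide libraries (0.0579 to 0.186). MRPL53, a mitochondria-specific neighbour, changed by -0.08 under the JeKo-1 label (adjusted p = 0.363) and fell by 0.42 on the log2 scale in Granta-519, a tested difference of 0.34 ± 0.11 (adjusted p = 0.00802).

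Of the proteins around the exit tunnel, MRPL23 fell by 0.27 and 0.47 on the log2 scale, and MRPL24 by 0.45 and 0.48, under the JeKo-1 label and in Granta-519. MRPL45, which anchors the mitoribosome to the inner membrane, did not pass in either line, with log2 changes of -0.06 ± 0.06 and -0.02 ± 0.07. MRPL44, a core protein whose mutation causes cardiomyopathy, had -0.08 ± 0.06 and -0.10 ± 0.06. In Granta-519 the value for MRPL44 became -0.21 (adjusted p = 0.00498) with no filter and -0.17 (adjusted p = 0.0178) in the line fitted alone. MRPL3, beside the catalytic site, went from 221 ± 16 to 169 ± 5.73 CPM (log2 -0.39) and from 174 ± 2.32 to 124 ± 3.75 CPM (log2 -0.49).

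The paralogs MRPS18A, MRPS18B and MRPS18C descend from 1 bacterial protein, and they did not move together. MRPS18A was at 40.1, 46 and 40.3 CPM in vehicle and 50.5, 53.4 and 53.7 CPM with chidamide under the JeKo-1 label, without overlap, and its log2 change in Granta-519 was -0.02 ± 0.07. MRPS18B fell by 0.35 and 0.44 on the log2 scale under the JeKo-1 label and in Granta-519. MRPS18C, the tested member with the lowest mean level, fell by 0.41 and 0.47.

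Among small-subunit genes, MRPS7 fell by 0.60 and 0.44, MRPS16 by 0.62 and 0.43, and MRPS22 by 0.29 and 0.53 on the log2 scale, under the JeKo-1 label and in Granta-519. The fall of MRPS22 under the JeKo-1 label was lost with upper-quartile scaling (log2 -0.14, adjusted p = 0.0872) and with library totals (-0.16, adjusted p = 0.0589). MRPS5, a core protein of the small subunit, fell by 0.63 and 0.38. MRPS36, the 2-oxoglutarate dehydrogenase subunit, fell by 0.35 and 0.50, the first of which was lost with upper-quartile scaling (-0.21, adjusted p = 0.0603).

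Before treatment the lines already differed. In vehicle, 68 of 76 genes differed between the labels, where 79.8% of all tested genes did. Of these, 52 were higher under the JeKo-1 label (background 35.5%) and 16 were lower (background 44.3%), with a median log2 difference of 0.37, against -0.13 over all genes. MRPS26 stood out with 175 ± 16.1 against 43.2 ± 1.45 CPM (SD, n = 3; log2 2.02 ± 0.06), followed by MRPS31 (log2 1.88), MRPL38 (1.78) and MRPL4 (1.75). MRPS7 (1.37) and MRPL45 (1.30) completed the 6 largest.

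Lower under the JeKo-1 label were, first of all, MRPL20, a large-subunit assembly protein in bacteria, and MRPL40. MRPL20 was at 85.2, 105 and 92.3 CPM there and at 176, 170 and 187 CPM in Granta-519 (log2 -0.91 ± 0.06, adjusted p = 1.53e-19). MRPL40 was at 19.6 ± 0.592 against 36 ± 1.5 CPM (log2 -0.88). MRPL54, MRPL52, MRPL28 and MRPL24 followed, with log2 differences of -0.78, -0.60, -0.58 and -0.56. MRPL20 nevertheless fell in both lines with chidamide, by 0.45 and 0.53.

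Levels can be compared between genes only per length, here as CPM per kilobase of a principal transcript. In vehicle under the JeKo-1 label, MRPL4 was highest at 350 ± 25.4 (SD, n = 3), followed by MRPS34 at 213 ± 16 and MRPL12 at 206 ± 7.85, the last 2 of which lay within their spread. In Granta-519 vehicle the order was MRPL20 at 246 ± 12.2, MRPL12 at 190 ± 6.96 and MRPL23 at 148 ± 2.37. MRPS18C was the lowest tested gene in both, at 8.60 ± 1.43 and 8.51 ± 0.286, though in Granta-519 MRPL50 at 8.62 ± 0.455 lay within the spread. Transcript lengths came from a different annotation than the counts, so this order is approximate.

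The members' transcripts were short, with a median of 1291 bases against 2914 over the tested genes with a length. Their median GC content was 49.0% against 49.6%. Within the family, genes with more GC had the larger falls. The 25 members with the lowest GC (35.0% to 46.2%) had median log2 changes of -0.24 under the JeKo-1 label and -0.18 in Granta-519. The middle 26 had -0.40 and -0.37, and the 25 with the highest GC (52.8% to 71.9%) had -0.58 and -0.63. All tested genes in these GC ranges had medians of 0.14, 0.02 and -0.10 under the JeKo-1 label, and 0.11, 0.05 and -0.03 in Granta-519. Of all tested genes in these ranges, 24.2%, 34.7% and 42.3% fell under the JeKo-1 label, and 26.5%, 36.2% and 40.2% in Granta-519. Pearson's r between GC and log2 change across members was -0.54 and -0.51, against -0.11 and -0.03 over the 12983 tested genes with a length. Spearman's rho was -0.51 and -0.50 across members, against -0.19 and -0.10 over those genes. These correlations run over genes that share the same libraries, and the part of GC content in the falls was not tested.

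Promoter sequences were available for 68 of the 77 genes (RefSeq, GRCh38.p14, 250 bases before to 50 bases after the start). They were read for letters bound by regulators of mitochondrial genes, on both strands. The YY1 letters AAGATGGC occurred in 20 of 68 promoters (29.4%), against 5.09% of 10858 promoters of tested genes and 3.03% of all 27305 promoters. The ETS letters CCGGAAG, bound by GABP and its relatives, occurred in 28 (41.2%), against 18.1% and 10.7%. The NRF1 letters, GCGC and TGCGC with any 1 base between them, occurred in 8 (11.8%), against 10.9% and 6.29%. The E-box CACGTG, bound by MYC and MAX among others, occurred in 6 (8.82%), against 9.97% and 7.44%. The CCAAT letters occurred in 20 (29.4%), against 36.5% and 35.7%. Among the members, 0 of the 21 YY1 matches shared bases with a match of the other letters. A match is a run of letters and not a measured binding site.

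The YY1 letters are shown for the 10 named members that hold them on the gene's own strand, because many recur at nearly the same place. Of 21 matches, 17 lay on the gene's own strand, 15 began between bases 7 and 36 from the start and 6 lay before the start. Of the named members, MRPL52 holds a match 98 and another 64 bases before the start. In 12 of the 21, the ATG inside the letters is an annotated start codon, so coding sequence and regulator letters coincide there. In the windows of 30 bases below, in GRCh38.p14 coordinates and 5′ to 3′ on the gene's strand, the letters are in capitals.
MRPL20 (chr1:1407260-1407289, minus strand): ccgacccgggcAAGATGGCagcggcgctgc
MRPS27 (chr5:72320206-72320235, minus strand): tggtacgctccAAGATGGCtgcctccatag
MRPL22 (chr5:154941093-154941122, plus strand): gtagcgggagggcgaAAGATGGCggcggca
MRPS18B (chr6:30617852-30617881, plus strand): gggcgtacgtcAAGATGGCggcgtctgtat
MRPS18A (chr6:43687764-43687793, minus strand): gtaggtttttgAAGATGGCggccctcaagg
MRPL42 (chr12:93467511-93467540, plus strand): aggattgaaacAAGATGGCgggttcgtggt
MRPL45 (chr17:38297170-38297199, plus strand): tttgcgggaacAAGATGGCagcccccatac
MRPS7 (chr17:75261887-75261916, plus strand): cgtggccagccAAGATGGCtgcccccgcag
MRPL38 (chr17:75904860-75904889, minus strand): aggccggagggAAGATGGCggcgccctggt
MRPL52, first match (chr14:22829778-22829807, plus strand): tacgatgacccAAGATGGCggagccgtgat
MRPL52, second match (chr14:22829812-22829841, plus strand): aacccagattcAAGATGGCgacttcctgct

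Genes with these letters moved both ways. Of the 10 shown, MRPL22, MRPL20, MRPL38, MRPL52, MRPS7 and MRPS18B fell in both lines, MRPS18A and MRPL42 rose under the JeKo-1 label, MRPL45 passed in neither and MRPS27 was called in opposite directions. Over all tested members, the median log2 change under the JeKo-1 label was -0.39 with the YY1 letters (19 genes) and -0.39 without them (48 genes). In Granta-519 it was -0.37 and -0.38. With the NRF1 letters (8 genes) it was -0.10 and -0.09 in the JeKo-1-labelled and Granta-519 libraries, against -0.45 and -0.44 without them (59 genes). With the ETS letters (28 genes) it was -0.39 and -0.40, against -0.40 and -0.29.

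The promoter stretches of the members with the largest fall and the largest rise under the JeKo-1 label follow, since these genes mark the ends of the range. In MRPS26 the bases 250 to 108 before the start hold none of the letters searched, and in MRPS14 neither do the 250 bases before the start.
MRPS26 (chr20:3045802-3045944, plus strand): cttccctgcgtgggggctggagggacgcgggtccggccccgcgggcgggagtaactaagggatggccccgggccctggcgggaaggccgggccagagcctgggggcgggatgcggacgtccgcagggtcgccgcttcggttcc
MRPS14 (chr1:175023426-175023675, minus strand): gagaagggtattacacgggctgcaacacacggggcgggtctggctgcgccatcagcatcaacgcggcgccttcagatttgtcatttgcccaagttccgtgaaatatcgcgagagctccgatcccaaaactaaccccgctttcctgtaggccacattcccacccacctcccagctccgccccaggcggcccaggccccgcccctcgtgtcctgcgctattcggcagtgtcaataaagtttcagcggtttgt
Nearer its start MRPS26 holds 1 ETS match on the opposite strand, beginning 37 bases before the start, in capitals in the window chr20:3046004-3046033 (plus strand).
MRPS26: tccccgcgccgCTTCCGGggcacggtggcg

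Most genes that work with these proteins fell as well, in each of the lists below. Of all tested genes, 31.1% fell and 35.3% rose under the JeKo-1 label. In Granta-519, 31.3% fell and 39.6% rose. Under the JeKo-1 label the lists' median log2 changes, in the order below, were -0.49, -0.45, -0.28, -0.45 and -0.37, against -0.39 for the members. In Granta-519 they were -0.33, -0.31, -0.18, -0.18 and -0.27, against -0.37. Mitoribosome proteins under other names fell in 6 of 6 genes under the JeKo-1 label and in 4 of 6 in Granta-519. AURKAIP1, a small-subunit protein, went from 170 ± 16.1 to 94.6 ± 0.824 CPM under the JeKo-1 label and from 270 ± 4.55 to 156 ± 13.8 CPM in Granta-519 (log2 -0.84 and -0.79). DAP3, the GTP-binding protein of the small subunit, fell by 0.25 and 0.27 on the log2 scale. CHCHD1 fell by 0.52 and 0.53, and GADD45GIP1 of the large subunit by 0.59 and 0.39.

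Of 30 genes for mitoribosome assembly and ribosomal RNA modification, 26 fell and 1 rose under the JeKo-1 label, and 22 fell and 2 rose in Granta-519. GTPBP6, a GTPase of large-subunit assembly, went from 125 ± 15 to 63.6 ± 2.71 CPM under the JeKo-1 label and from 127 ± 2.23 to 54.3 ± 5.09 CPM in Granta-519 (log2 -0.97 and -1.23). TRUB2, a pseudouridine synthase family member, fell by 0.88 and 0.89, MPV17L2 by 0.94 and 0.66, and WBSCR16 by 0.65 and 0.89. MTERF3 rose in both lines, by 0.26 and 0.21, and TFB1M, the methyltransferase of the small ribosomal RNA, rose by 0.34 in Granta-519.

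Of 20 translation factors and insertase genes, 13 fell and 5 rose under the JeKo-1 label, and 12 fell and 4 rose in Granta-519. TUFM, the mitochondrial elongation factor Tu, went from 605 ± 47.4 to 381 ± 2.89 CPM and from 359 ± 2.21 to 259 ± 10 CPM (log2 -0.67 and -0.47). TACO1, a translational activator of cytochrome c oxidase subunit I, fell by 0.93 and 0.71, PDF, the peptide deformylase, by 0.84 and 0.61, and LETM1 by 0.92 and 0.44. GFM2, an elongation factor of ribosome recycling, fell by 0.58 in Granta-519. MTRF1L, a release factor, rose by 0.39 and 0.33, and C6orf203 by 0.37 and 0.45.

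Of 23 genes for mitochondrial transcription and RNA processing, 18 fell and 1 rose under the JeKo-1 label, and 12 fell and 4 rose in Granta-519. POLRMT, the mitochondrial RNA polymerase, went from 234 ± 24.4 to 96.5 ± 2.19 CPM under the JeKo-1 label and from 91.9 ± 1.82 to 73.6 ± 4.63 CPM in Granta-519, a difference between the effects of -0.96 ± 0.08 (log2, adjusted p = 9.8e-15). TFAM, which packages mitochondrial DNA and starts its transcription, fell by 0.19 under the JeKo-1 label and rose by 0.33 in Granta-519 (difference -0.52, adjusted p = 3.19e-08). TRMU and GTPBP3, which modify mitochondrial transfer RNAs, fell by 1.05 and 0.93 under the JeKo-1 label. In Granta-519 TRMU had -0.13 (adjusted p = 0.104) and GTPBP3 fell by 0.28. SUPV3L1, an RNA helicase, fell by 0.82 and 0.72, HSD17B10 by 0.41 and 0.54, and KIAA0391, the nuclease of mitochondrial RNase P, by 0.23 and 0.53. MTERF1 rose by 0.49 and 0.21, and TRNT1 fell by 0.21 under the JeKo-1 label and rose by 0.35 in Granta-519.

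Of 13 tested nuclear regulators of mitochondrial genes, 10 fell and 2 rose under the JeKo-1 label, and 9 fell and 1 rose in Granta-519. HCFC1, a coactivator, fell by 1.55 and 1.31 on the log2 scale, from 455 ± 35.6 to 155 ± 2.17 CPM and from 429 ± 29.4 to 173 ± 6.34 CPM. YY1 fell by 0.74 and 0.48, ESRRA by 0.88 and 0.76, and PPRC1 by 0.99 and 0.28. NRF1, the activator of respiratory genes, fell by 0.20 and 0.38. CREB1 and GABPB2 rose by 0.31 and 0.38 under the JeKo-1 label. MYC was at 329 ± 8.48 CPM in vehicle under the JeKo-1 label, where it fell by 0.70, and at 85.1 ± 1.03 CPM in Granta-519, where it rose by 0.54 (difference -1.24 ± 0.06, adjusted p = 2.53e-23).

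The cytosolic ribosome and the respiratory chain give further comparisons. Of 73 tested cytosolic ribosomal protein genes, 5 fell and 35 rose under the JeKo-1 label (median log2 change 0.08), and 2 fell and 44 rose in Granta-519 (0.11). Of 79 tested oxidative phosphorylation genes, 49 fell and 6 rose under the JeKo-1 label (-0.21), and 62 fell and 1 rose in Granta-519 (-0.33). Both families were taken by symbol alone, so the second may hold rows that are not subunits. Its rows in the table include readthroughs such as NDUFC2-KCTD14. The mitoribosomal medians of -0.39 and -0.37 thus lay below those of both families. In Granta-519, however, a larger share of the oxidative phosphorylation genes fell, 78.5% against 71.1%. The lists of other mitoribosome proteins, assembly, and transcription had lower medians than the members under the JeKo-1 label, at -0.49, -0.45 and -0.45. In Granta-519 their medians were -0.33, -0.31 and -0.18. Differences between the families and lists were described and not tested. The count table has 0 rows whose symbols begin with MT-, the prefix of mitochondrial genome genes, so these genes could not be analysed.

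**Figure D5:**
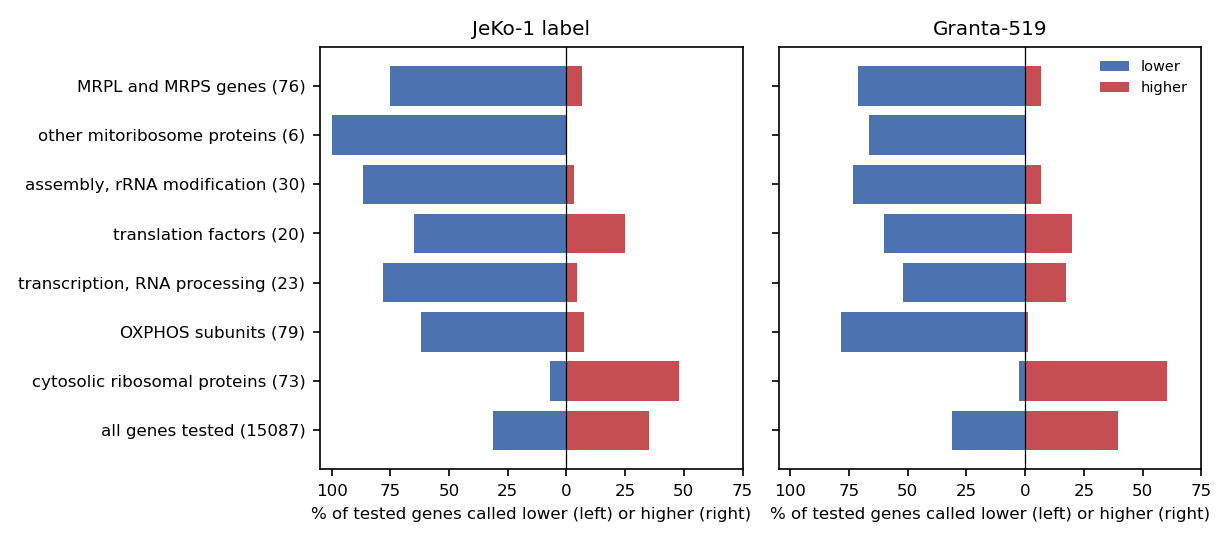
Percent of tested genes (horizontal axis) that fell, to the left, and that rose, to the right, at an adjusted p under 0.05 with chidamide under the JeKo-1 label and in Granta-519, with the number tested after each name. The MRPL and MRPS genes fell in 75% and 71.1% of cases, and cytosolic ribosomal protein genes in 6.85% and 2.74%.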

How the data were processed

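The authors deposited whole-number counts per gene symbol for 12 libraries of polyadenylated RNA, with STAR and hg19 named in the submitters' processing notes. Not given in the sources used here were the version of STAR, the counter, the annotation and strandedness, so overlapping and antisense genes may share reads. A second deposited table, named as TPM, holds a length-scaled score (a count divided by a constant of the gene and by the library total). Its columns do not sum to a fixed total, and it served only as an alternative.

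Tests on the counts used edgeR 4.0.16 under R 4.3.3 (filterByExpr by group, TMM, robust quasi-likelihood fit of 4 group means, 8 residual degrees of freedom). Of 26364 genes, 15087 were tested, with Benjamini-Hochberg adjustment over them and a threshold of 0.05. Date-like symbols (28) stayed in the totals and are not named. CPM used TMM-scaled library totals, and the SE is approximate, back-calculated from the log2 change and its F statistic. Alternatives were limma 3.58.1 on the score (log2 of the value plus 0.01), DESeq2 1.42.0, other scalings, no filter (genes with any count), each line alone, a replicate block and each library left out. The procedure was tested on simulated data with few changed genes, balanced up and down. Far more genes changed in these data, so that test does not cover the choice of scaling here.

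Members were named by rule: the 6 largest calls each way in each contrast, the 5 highest and 3 lowest mean levels, and members with a fixed role. Others were named as the 3 largest falls and 2 largest rises of each list and line, plus POLRMT, TFAM, TUFM, NRF1, MYC and DAP3. The members and lists were chosen with earlier results of these data known. Transcript lengths and GC content came from GENCODE on GRCh38 (principal transcript of median length) and promoters from RefSeq (GRCh38.p14), neither of which is the build of the counts.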

Additional observations from a re-analysis of the deposited data

Results flagged for a closer look

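For 25 of the 76 tested genes, a test of the difference itself found that the chidamide effect differed between the lines, against 39.5% of all tested genes. The values below are the log2 effect under the JeKo-1 label minus that in Granta-519 for the named members, and why they differ was not tested.

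More negative under the JeKo-1 label were MRPL55 (-0.55), MRPS26 (-0.55), MRPL35 (-0.50), MRPS6 (-0.45), MRPL4 (-0.40), MRPS2 (-0.37), MRPS31 (-0.33), MRPS34 (-0.29), MRPL34 (-0.25), MRPS5 (-0.24), MRPS27 (-0.24) and MRPS16 (-0.19). More negative in Granta-519 were MRPL22 (0.51), MRPL28 (0.38), MRPL9 (0.34), MRPL53 (0.34) and MRPL23 (0.20). MRPS14 (0.34), MRPL42 (0.33) and MRPS18A (0.33) rose more under the JeKo-1 label.

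The calls of MRPL34, MRPS16, MRPS2, MRPS27, MRPS31, MRPS34 and MRPS5 were lost with scaling by library totals, at adjusted p of 0.34, 0.5, 0.0709, 0.215, 0.108, 0.111 and 0.278. The call of MRPL23 (adjusted p = 0.0412) was lost with DESeq2 (0.0609) and in 8 of the 12 fits that left out 1 library (0.0513 to 0.176). These were the fits without vehicle replicates 1 and 3 and chidamide replicates 2 and 3 of the JeKo-1 label, and without vehicle replicates 1 and 2 and chidamide replicates 1 and 3 of Granta-519. The call of MRPL34 (adjusted p = 0.0279) was lost in 6 such fits (0.0631 to 0.0973), without vehicle replicates 2 and 3 or chidamide replicate 1 of the JeKo-1 label, and without vehicle replicates 1 and 2 or chidamide replicate 1 of Granta-519. That of MRPS16 (adjusted p = 0.0121) was lost without vehicle replicate 1 of Granta-519 (0.0605). Each call lost with library totals was also lost with no filter on low counts (adjusted p of 0.133 to 0.891). The same held with limma on the length-scaled score (0.0679 to 0.442). With upper-quartile scaling, MRPL34 and MRPS16 lost their calls too (0.0832 and 0.0664).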

How the results depend on the processing

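No count of members that fell moved by more than 1.5 times under any alternative. The median log2 change under the JeKo-1 label (-0.39) was -0.24 with upper-quartile scaling, -0.26 with library totals, -0.34 with no filter on low counts and -0.25 with the length-scaled score, and -0.40 to -0.35 with 1 library left out. In Granta-519 (-0.37) it was -0.27 with upper-quartile scaling, -0.48 with no filter and -0.44 in the line alone, and -0.40 to -0.34 with 1 library left out. These scalings moved the median of all genes too, to 0.19 and 0.18 with upper-quartile scaling. Members' median minus that of all genes was -0.43 and -0.46 with TMM and with upper-quartile scaling. The share of rises among all calls went from 53.1% to 64.9% and from 55.8% to 64.0% with upper-quartile scaling. Rises in Granta-519 (5 members, 11 listed genes) were 2 and 6 with no filter, 3 and 7 in the line alone, and 3 to 6 and 7 to 12 with 1 library left out, with 3 and 7 without vehicle replicate 2. Effects more positive under the JeKo-1 label (9) numbered 24, 24 and 27 with library totals, no filter and the score, and those more negative (16) numbered 6, 5 and 6. The members' median line difference in vehicle (0.37) was 0.30 with upper-quartile scaling, 0.23 with library totals, 0.27 with no filter and 0.23 with the score. Minus the median of all genes, it was 0.50 with TMM, upper-quartile scaling and library totals. The line difference in vehicle of MRPL12 turned to -0.0231 and -0.0287, and that of MRPL23 to -0.124 and -0.130, with library totals and the score. The change of MRPS27 under the JeKo-1 label turned to 0.0213, 0.00690 and 0.0107 with upper-quartile scaling, library totals and the score. No pairing by replicate number was seen, as the correlations of same-numbered deviations ran from -0.03 to 0.03. How the cultures were set up is not known. With the replicate number as a block, 57 members fell and 5 rose under the JeKo-1 label and 56 fell and 5 rose in Granta-519. At these depths every tested member had at least 2153 counts in all.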
